A study of Notamacropus eugenii with 7 samples.

Results

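The known miRNAs of tammar wallaby milk were compared between days 118 and 175 of lactation, both in phase 2B, the middle of lactation, when the joey suckles off and on and has not yet left the pouch. Every miRNA with an entry in at least 1 of these milk libraries was included, which gave 83 of the 346 miRNAs named in the deposited table and of the 102 listed in any library. Milk of several females, collected under anaesthesia and after oxytocin for milk letdown, was pooled for each day and then skimmed, and each pool gave 1 small RNA library. The day 118 milk is labelled D120 and the day 175 milk D175. A duplicate of the D175 profile is mentioned in the series record. It was not analysed here as a library of its own, and the sources used here do not say if the D175 values contain it. Values are percent of annotated miRNA reads, called share below, with 3 decimals. The depth is unknown from them, a 0 means that a listed miRNA lay under the rounding limit, and a blank that the table has no entry. Absent below means without an entry under that name, and reads of its arms counted under other names are not covered. With 1 pooled library per day there is no replicate error, so the differences below are between these libraries and carry no test. Libraries from milk of days 35, 72 and 250 and from serum of days 118 and 175 are used only for orientation.

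miRNAs are short RNAs that guide Argonaute proteins to messenger RNAs, mostly through the bases near their 5′ end, and lower the output of those messengers. Members of a family share these bases, and members of a cluster are cut from a common primary transcript. Milk carries miRNAs in vesicles, fat globules and protein complexes, and miR-148, miR-30, let-7, miR-21 and miR-200 members are familiar milk miRNAs of placental mammals.

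Mature wallaby sequences were not in the files used here, but the study's quantitative PCR assays give most of the bases for 5 of the miRNAs, and these are shown because they were assayed. They include 3 with large gains, miR-30a, miR-148 and miR-141, but neither miR-191 nor miR-184, which made up most of the losses. Each forward primer starts with added bases and runs on into the 5′ part of the miRNA, in DNA letters, and is given from 5′ to 3′.
miR-148: ccgggctcagtgcactacag
miR-30a: ggcgcgtgtaaacatcctcga
miR-141: cgcgcctaacactgtctggta
miR-22: ccaggcaagctgccagttg
miR-92: gcgcttattgcacttgtcccg
The stem-loop primer that copies each miRNA into cDNA ends in 6 bases that pair with the 3′ end of the miRNA. They are ACAAAG for miR-148, CTTCCA for miR-30a, GCATCT for miR-141, GCAGTT for miR-22 and CAGGCC for miR-92. The first 4 of these miRNAs took larger shares at day 175 and miR-92 took a smaller one. For these 4 the study also assayed milk of other animals over lactation and reports a good correlation with its sequencing. The assay values were not used here.

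The most abundant miRNA changed between the days. miR-191, a widely expressed miRNA, had a share of 43.8% at day 118 and of 9.66% at day 175 and went from rank 1 to rank 4. This was a difference of -34.2 percentage points and a 4.54-fold lower share, and the day 175 value was below the range of 15.5 to 43.8% in the other 4 milk libraries. miR-184, known from the cornea and from neural stem cells, went from 8.56 to 1.45% and from rank 2 to rank 14. Its share was 5.91-fold lower at day 175. miR-92, a member of the miR-17-92 cluster, went from 2.50 to 0.849% and from rank 10 to rank 16.

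Rank 1 at day 175 belonged to miR-148, which targets a DNA methyltransferase and went from 8.32 to 14.6%. miR-30a, of a family abundant in kidney and other epithelia, followed with 3.36% at day 118 and 13.7% at day 175, a 4.07-fold higher share. miR-375, best known from the pancreatic islet, held 8.23 and 9.78%. These shares put miR-148, miR-30a and miR-375 at ranks 1, 2 and 3 of day 175, where miR-191, miR-184 and miR-148 had stood at day 118. The lists of the 10 most abundant miRNAs had 8 names in common. miR-184 and miR-92 left the list, and miR-141 and miR-143 entered it. Over the 56 miRNAs listed on both days the median change of rank was 5 places.

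**Figure D1:**
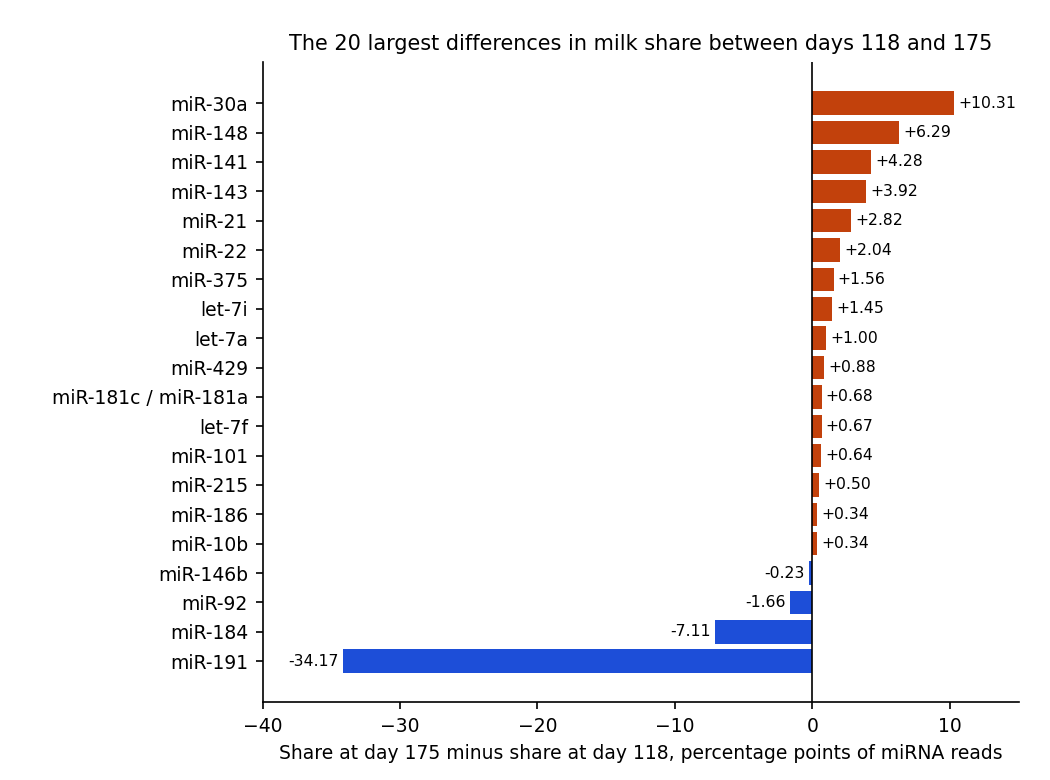
Difference in share between day 175 and day 118, in percentage points of miRNA reads, for the 20 milk miRNAs with the largest differences, 1 pooled library per day. Bars to the right are larger shares at day 175. The bar of miR-191 at -34.2 points is longer than that of any other miRNA, and miR-30a at 10.3 points is the longest to the right.

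In percentage points, 41.6 points of the profile changed hands, counted as the summed absolute differences divided by 2. Losses summed to 43.4 points over 15 miRNAs and gains to 39.8 points over 66 miRNAs. miR-191 alone made up 78.7% of the losses, and miR-191 with miR-184 95.1%. The gains were more widely spread, since the 3 largest made up 52.5%, the 5 largest 69.4% and the 10 largest 86.8% of them. The 5 largest were 10.3 points for miR-30a, 6.29 for miR-148, 4.28 for miR-141, 3.92 for miR-143 and 2.82 for miR-21. The listed shares summed to 99.4% at day 118 and 95.8% at day 175, so 0.578 and 4.18% of the annotated reads belong to no listed miRNA. Across the 56 shared miRNAs, which are not independent of each other within a library, Pearson's r of the log2 shares was 0.89 and Spearman's rho 0.91, given as a description.

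A share depends on all the others, and the smaller share of miR-191 leaves room for the rest. With miR-191 taken out of both denominators every other ratio is 1.61-fold lower, or 0.69 on the log2 scale. The median ratio of day 175 to day 118 was also 1.61, over 55 miRNAs. Ratios below are of the deposited shares and are to be read against this shift. For each miRNA at or above 0.005% in at least 1 of the libraries a difference of at least 2-fold was counted, and presence on 1 day with absence on the other counted as such a difference.

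Of the 59 miRNAs compared in this way, 45 were higher and 14 lower at day 175. At least 2-fold higher were 30, or 50.8%, and at least 2-fold lower were 7, or 11.9%, which leaves 22 within 2-fold. Of the 30, miR-19a, miR-451, miR-190b, miR-460, miR-126, miR-125b, miR-204, miR-27a, miR-210 and miR-139 met the minimum of 0.005% only at day 175. Of the 7, miR-122, miR-223 and miR-20 met it only at day 118. The minimum thus partly fixes these counts and both percentages, also where they stand beside single lists below. The split moves with the scaling, since centring on the mean log share of 56 miRNAs gave 19 higher and 14 lower. Under the deposited scale and 4 other scalings alike, 15 were at least 2-fold higher and 6 at least 2-fold lower. Each other scaling shifts all log2 ratios by 1 common value, from -0.053 to 1.01. Holding under all 5 thus amounts to a stricter cut on the deposited ratio and not to 5 separate checks. The 15 were miR-19a, miR-451, miR-101, miR-190b, miR-21, miR-19b, miR-186, miR-221, miR-141, miR-460, miR-215, miR-203, miR-143, miR-182 and miR-30a. The 6 were miR-191, miR-184, miR-92, miR-146b, miR-122 and miR-223. The direction held under all 5 scalings for 26 higher and 12 lower miRNAs and turned for 17. In these counts miR-191 itself was run under 4 scalings only, since it has no value once it is left out.

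**Figure D2:**
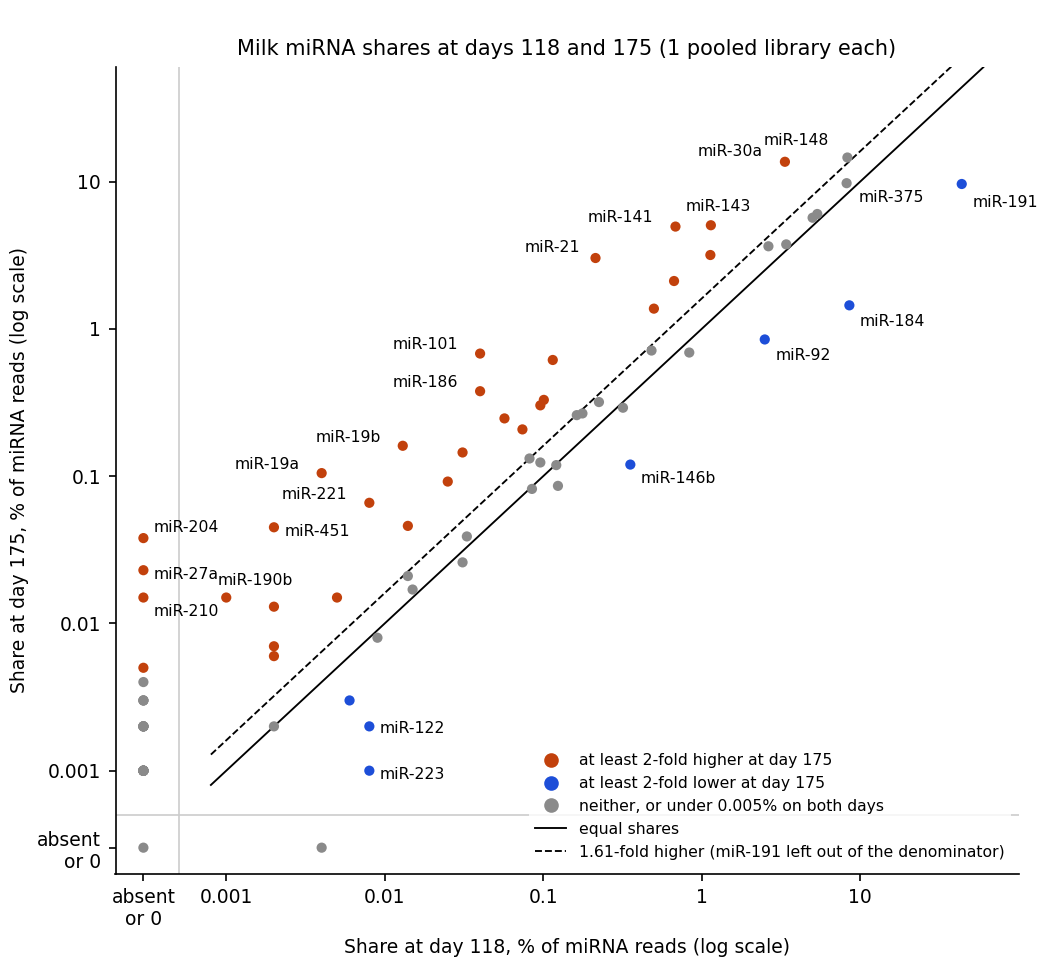
Share of each of the 83 listed miRNAs in milk at day 118 (horizontal) and day 175 (vertical), in percent of miRNA reads on log axes, with absent or 0 entries in the strips at the left and bottom, 1 pooled library per day. The solid line marks equal shares and the dashed line shares 1.61-fold higher. Of the 59 miRNAs compared, 30 are at least 2-fold above the solid line and 7 at least 2-fold below it.

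The counts by abundance were as follows. Among the 15 compared miRNAs with a mean share of 1% or more, 6 were at least 2-fold higher and 3 at least 2-fold lower, with a median ratio of 1.38. Of the 19 between 0.1 and 1%, 8 were higher and 1 lower, and the median ratio was 1.60. Of the 15 between 0.01 and 0.1%, 10 were higher and 0 lower by that measure, with a median ratio of 3.29 over the 13 above 0 on both days. Of these 10, miR-19a, miR-451, miR-204 and miR-27a met the minimum of 0.005% only at day 175, so this split is partly set by the minimum. Below 0.01%, 6 of 10 were higher and 3 lower, with a median ratio of 1.63 over the 8 above 0 on both days. Here the minimum of 0.005% on either day largely fixes that a miRNA differs, so nothing is read from these counts.

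With miR-191 included, the reads were also more evenly spread at day 175. At day 118, 2 miRNAs covered 50% of the listed reads, 10 covered 90% and 26 covered 99%, while at day 175 this took 5, 14 and 34 miRNAs. The effective number of miRNAs, the exponential of the Shannon index, was 8.65 at day 118 and 16.8 at day 175. The other milk libraries, of days 35, 72 and 250, had effective numbers of 8.43, 9.69 and 10.3, so that day 175 lay above the other 4. The inverse Simpson index, which weighs the abundant miRNAs more, went from 4.44 to 12. Without miR-191 the effective number was 13.9 at day 118 and 16 at day 175, and the inverse Simpson index 10.1 and 11. The difference between the days was thus smaller in both measures once this miRNA was left out. Pielou's evenness, the Shannon index divided by the logarithm of the number listed, was 0.531 at day 118 and 0.642 at day 175. Without miR-191 it was 0.651 and 0.633, with 57 and 80 miRNAs listed, and 4 miRNAs covered 50% of the reads on both days. By these values the other miRNAs were not more evenly spread at day 175.

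**Figure D3:**
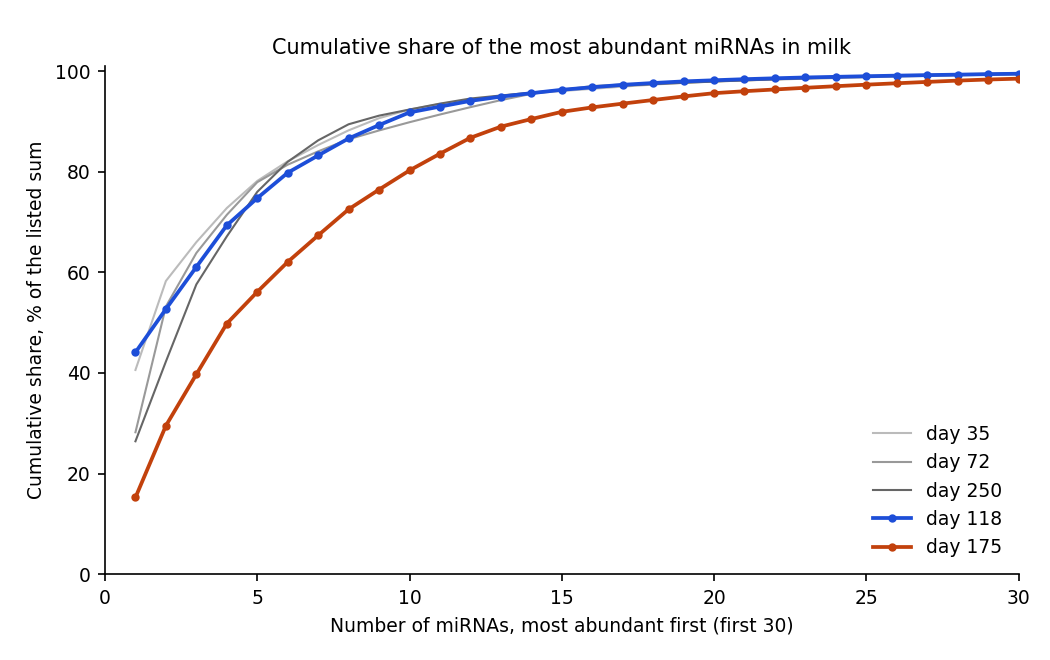
Cumulative share of the most abundant milk miRNAs, in percent of the listed reads, against the number of miRNAs counted from the most abundant, for the 5 milk libraries, 1 per day. The day 175 curve lies below the other 4 over the first miRNAs, with 15.3% for the first miRNA against 44.1% at day 118 and 80.2% for the first 10 against 91.8%.

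The number of listed miRNAs was 58 at day 118 and 81 at day 175. Both libraries listed 56, day 118 alone 2 and day 175 alone 25. The 25 summed to 0.117% of the reads with a median of 0.002%, and 11 of them stood at 0.001%, the lowest printed value above 0. The 4 at or above 0.005% were miR-204 at 0.038%, miR-27a at 0.023%, miR-210 at 0.015% and miR-139 at 0.005%. miR-204 is known from the eye and miR-210 from the response to low oxygen. Earlier milk held more miR-204, with 0.279% at day 35 and 1.63% at day 72, whereas the entry of day 250 is 0. The 2 miRNAs of day 118 alone were miR-133a, a muscle miRNA, at 0.004%, and miR-29b at 0.

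Most of these gains were names seen in milk on other days. Of the 25, 20 were listed at day 72 and 20 at day 250, and 2, miR-150 and miR-455, were in no other milk library. Of the 73 miRNAs listed at days 72, 175 and 250, 17 were absent at day 118. The numbers above a fixed share were closer, with 43 at day 118 and 52 at day 175 at or above 0.01%, 27 and 36 at or above 0.1%, and 12 and 15 at or above 1%. Between 0.001 and 0.005% there were 9 entries at day 118 and 26 at day 175. By the read totals of the study, the libraries of days 72, 175 and 250 each held more annotated miRNA reads than that of day 118. The part of this depth in the number listed was not tested.

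Ratios were ranked over the 49 miRNAs at or above 0.01% on at least 1 day and above 0 on both, of which 39 were higher and 10 lower at day 175. Of the 10 largest ratios, miR-21 and miR-141 belong to miRNAs with a mean share above 1%, and the other 8 to rarer ones. The minimum favours this, since miR-19a, miR-451, miR-190b, miR-221 and miR-460 reached 0.01% only at day 175. miR-19a, which with miR-19b and miR-92 comes from the miR-17-92 cluster of growth-promoting miRNAs, was 26.3-fold higher, with 0.004 and 0.105%. Rounding alone allows 23.2 to 30.1-fold. miR-19b was 12.4-fold higher, with 0.013 and 0.161%. Both day 175 values were the highest of the 5 milk libraries, as was the case for 26 of the 59 compared miRNAs.

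miR-101, which targets the histone methyltransferase EZH2, had 0.040% at day 118 and 0.681% at day 175, 17.0-fold higher. In the other milk libraries it held between 0.027 and 0.296%. miR-186 was 9.45-fold higher, with 0.040 and 0.378%. miR-221, a regulator of the cell cycle and of the KIT receptor, was 8.25-fold higher, with 0.008 and 0.066%. For the rarest miRNAs of this group the rounding is coarse. miR-190b had 0.001 and 0.015%, which rounding places between 9.67 and 31-fold, and miR-460 had 0.002 and 0.013%, between 5 and 9-fold.

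The immune regulators were a mixed group. miR-21, raised in many inflamed and growing tissues, was 14.2-fold higher at day 175, with 0.214 and 3.04%, and the other milk libraries held 0.287 to 0.559%. miR-146a and miR-146b damp signalling from Toll-like receptors. miR-146a had 0.082 and 0.132%, which equals the median ratio. miR-146b had 0.355 and 0.120%, 2.96-fold lower at day 175. miR-155 was absent on both days. Their summed share was 0.651% at day 118 and 3.29% at day 175, and the gain was that of miR-21.

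Epithelial miRNAs were present on both days, and the miR-200 family among them took a larger share at day 175 under all 5 scalings. The miR-200 family represses the ZEB factors and keeps epithelial cells in their state. Its summed share went from 1.31 to 6.50%, 4.95-fold higher, and the day 175 sum was the highest of the 5 milk libraries. miR-141 made up most of it, with 0.684 and 4.96%, and miR-429 was 2.75-fold higher, with 0.500 and 1.38%. miR-200b and miR-200c stood at 0.096 and 0.033% at day 118 and at 0.124 and 0.039% at day 175, ratios of 1.29 and 1.18 that lie below the shift of all miRNAs. With miR-191 left out of the denominators both were lower at day 175, by -0.32 and -0.44 on the log2 scale, while miR-141 and miR-429 stayed higher, at 2.17 and 0.77. The entry named miR-200a was blank in every library. The study names arms of this miRNA in its milk, so the blank does not show that the milk lacked it.

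Other epithelial markers differed in size. miR-203, a miRNA of stratified epithelium, had 0.031 and 0.145%, 4.68-fold higher. miR-182, of a cluster first known from sensory organs, had 0.057 and 0.247%, 4.33-fold higher, whereas its cluster neighbour miR-183 had 0.014 and 0.021%. miR-205a was listed only at day 175, at 0.001%. Over the 10 epithelial markers, 9 were listed and their sum was 9.64% at day 118 and 16.7% at day 175, with miR-375 the largest entry on both days. This sum was higher by 0.79 on the log2 scale as deposited, by 0.11 with miR-191 left out of the denominators, and turned to -0.22 under the centred log ratio. In serum the same markers summed to 1.33 and 1.60%. Of the 8 compared, 4 were at least 2-fold higher and 0 lower, beside 50.8 and 11.9% over all miRNAs.

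Several abundant miRNAs changed little beyond the common shift. The let-7 family, which marks developmental timing and differentiation, had 9.04% at day 118 and 12.4% at day 175, with 6 of 9 members listed. This sum was 0.45 on the log2 scale as deposited and turned to -0.23 with miR-191 left out or after division by the median ratio, and to -0.56 under the centred log ratio. let-7f, the largest, had 5.37 and 6.04%, and let-7a 2.64 and 3.65%. let-7i was 3.16-fold higher, with 0.670 and 2.12%, and let-7g 2.81-fold higher, with 0.074 and 0.208%, so that 2 of 6 members were at least 2-fold higher, beside 50.8% of all compared miRNAs, and 0 were lower. let-7d was nearly equal, with 0.121 and 0.119%. Such near-identical members, and likewise miR-10a and miR-10b, may share reads, which the counting can have divided among them.

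miR-10b, encoded among the Hox genes, had 3.42 and 3.76%. The entry that joins miR-181c with miR-181a, a family known from lymphocyte development, had 5.02 and 5.70%. When the denominators excluded miR-191, the direction turned for miR-375, let-7f, the miR-181 entry, miR-10b and let-7a, which were then lower at day 175 by -0.44, -0.52, -0.50, -0.55 and -0.22 on the log2 scale. miR-148 stayed higher in that scaling, at 0.13, but not under the centred log ratio.

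Some other groups differed by more than this. miR-143, a smooth muscle and stromal miRNA, had 1.14 and 5.07%, 4.43-fold higher, while its cluster neighbour miR-145 was listed only at day 175, at 0.001%. miR-22 had 1.14 and 3.18%, 2.80-fold higher. miR-215, of a family known from gut and kidney, had 0.115 and 0.616%, 5.36-fold higher, and 0.017 to 0.128% in the other milk libraries. miR-192 and miR-194, which stand in the same list, were absent. miR-27b was 3.27-fold higher, with 0.101 and 0.330%, miR-130a 3.16-fold and miR-152, a relative of miR-148, 3.68-fold. Their list neighbours miR-23a, with 0.009 and 0.008%, and miR-301, with 0.015 and 0.017%, stayed within 2-fold. Over the 23 lists of families, clusters and markers with a ratio, 12 summed shares were at least 2-fold higher and 2 at least 2-fold lower. Under the centred log ratio these counts were 7 and 4, and 4 were also lower with miR-191 left out. These lists overlap, since miR-200 members are also epithelial markers.

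**Figure D4:**
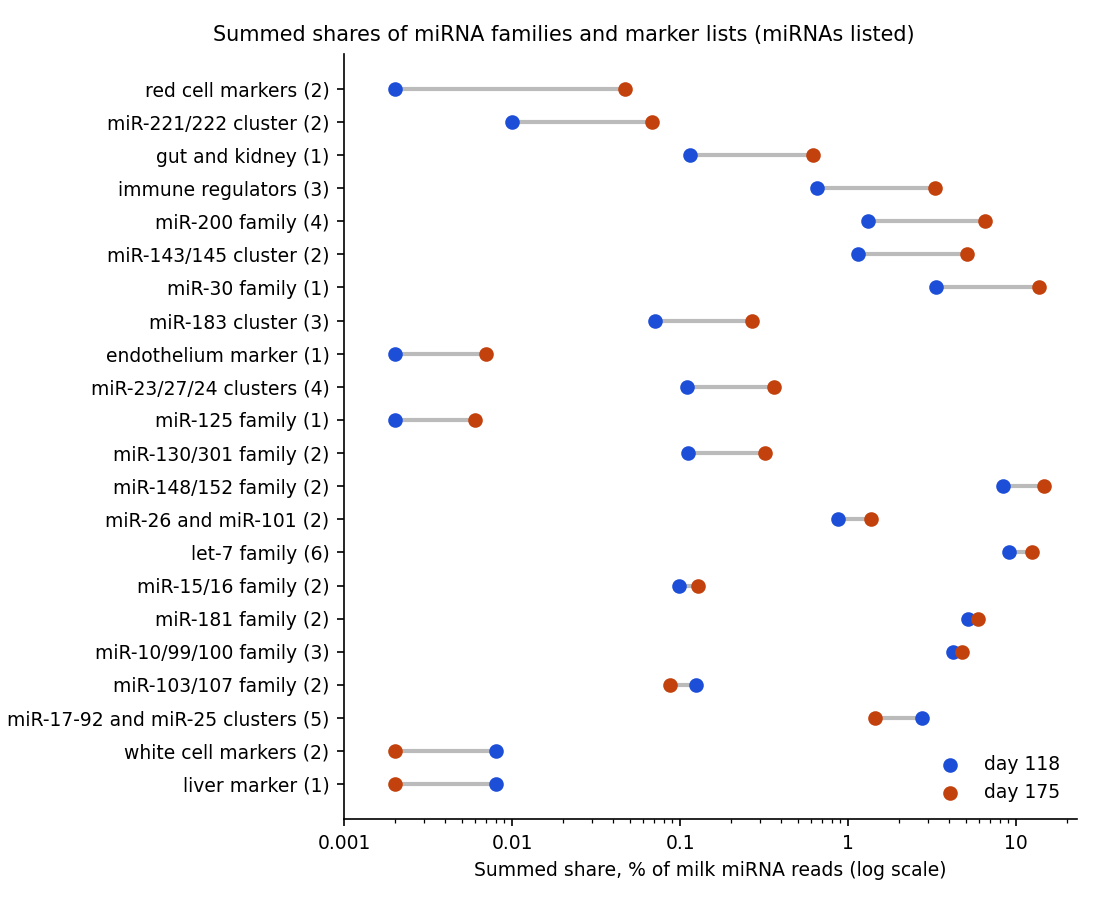
Summed share of miRNA families, clusters and marker lists in milk at days 118 and 175, in percent of miRNA reads on a log axis, 1 pooled library per day, ordered by the ratio of the sums, with the number of listed members in parentheses. The list of epithelial markers and the lists without a compared member are not shown. The miR-200 family goes from 1.31 to 6.50% and the miR-17-92 and miR-25 clusters from 2.75 to 1.44%.

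On the deposited scale 10 of the 49 ranked miRNAs were lower at day 175, 4 of them by at least 2-fold. With miR-191 left out of the denominators 22 of the other 48 were lower, and again 4 by at least 2-fold, miR-184, miR-92, miR-146b and miR-103. On the deposited scale, after miR-184, miR-191, miR-146b and miR-92 came miR-103, a miRNA of a metabolic gene, with 0.124 and 0.086%, 1.44-fold lower. miR-26 had 0.836 and 0.692% and miR-128, a brain miRNA, 0.031 and 0.026%. miR-100 had 0.319 and 0.292%, miR-16 0.085 and 0.082%. These 5 and let-7d lay within 2-fold as deposited, and let-7d and miR-16 turned direction when shares were rescaled to the listed sum.

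Marker miRNAs of blood cells, endothelium, liver, muscle and neurons were rare or without an entry on both days. miR-451, the most typical miRNA of red cells, had 0.002% at day 118 and 0.045% at day 175, 22.5-fold higher, with 17.8 to 30.3-fold allowed by rounding. Of the other red cell markers, miR-144 had 0.002% at day 175 only and miR-486 was absent. The list summed to 0.002 and 0.047% in milk, and to 0.042 and 0.055% in serum. The white cell list went the other way, from 0.008 to 0.002%, beside 0.041 and 0.120% in serum, with miR-223 of myeloid cells at 0.008 and 0.001%, miR-150 at 0.001% on day 175 only, and miR-142 and miR-155 absent. miR-126 of endothelium had 0.002 and 0.007%, and the liver miRNA miR-122 0.008 and 0.002%. The neuron markers miR-124 and miR-9 were absent. The part of blood or other cells in the differences between the milk libraries was not tested.

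Ratios between miRNAs of 1 library do not depend on the denominator. Over the 65 pairs of compared miRNAs that stand in 1 list, 39 ratios, or 60%, changed by more than 2-fold between the days. For 15, or 23.1%, the change was more than 4-fold. Not all pairs are relatives, since 24 come from marker or regulator lists, and miR-26 with miR-101 is neither a family nor a cluster. Over all 1485 pairs of compared miRNAs above 0 on both days the shares were 69.4 and 42.4%. The pairs described next were picked with their values in view. miR-19a over miR-92 was 0.0016 at day 118 and 0.124 at day 175, a 77.4-fold change between members of 1 cluster. miR-19b over miR-92 changed 36.5-fold and miR-25 over miR-92, of related clusters, 4.18-fold. miR-21 over miR-146b went from 0.603 to 25.3, and miR-101 over miR-26 from 0.0478 to 0.984. miR-146a over miR-146b went from 0.231 to 1.10, miR-141 over miR-200c from 20.7 to 127, and let-7i over let-7f from 0.125 to 0.351.

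**Figure D5:**
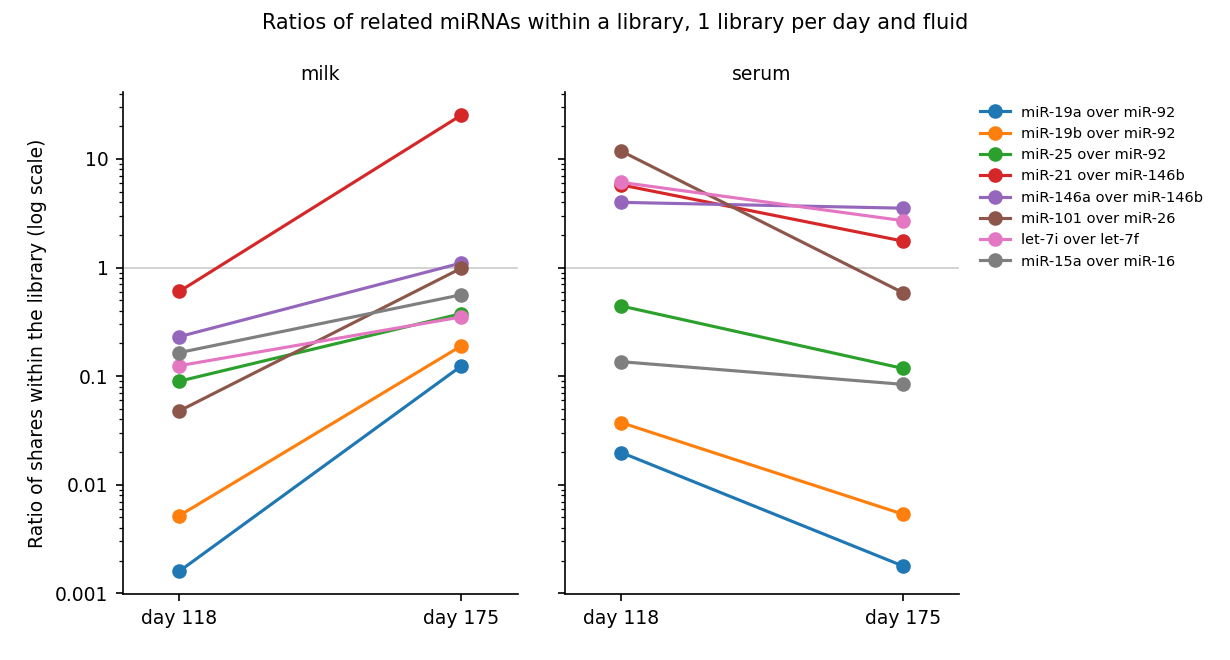
Ratio of the shares of 8 pairs from 1 list each (miR-19a, miR-19b and miR-25 over miR-92, miR-21 and miR-146a over miR-146b, miR-101 over miR-26, let-7i over let-7f, miR-15a over miR-16) at days 118 and 175, on a log axis, in milk (left) and in serum (right), 1 library per day and fluid. All 8 lines go up in milk, which the way each pair is written fixes, and these 8, picked with their values in view, go down in serum, where miR-146a over miR-146b goes only from 3.98 to 3.52.

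The serum pair of days 118 and 175 shares no library with the milk pair. According to the study, however, the blood came from females that also gave milk, so the fluids share animals. In serum miR-19a over miR-92 was 11.1-fold lower at day 175, miR-19b over miR-92 6.97-fold, miR-25 over miR-92 3.76-fold, miR-101 over miR-26 20.1-fold and miR-21 over miR-146b 3.29-fold lower. Each pair was written so that its ratio was higher in milk at day 175, and of the 48 pairs with a serum ratio on both days 32 were lower and 16 higher in serum at day 175. Over the 51 compared miRNAs above 0 in all 4 libraries, the median ratio of day 175 to day 118 was 1.76 in milk and 1.09 in serum. Of these 51, 17 were higher in both fluids and 3 lower in both, while 20 were higher in milk and lower in serum, 10 were lower in milk and higher in serum, and 1 was equal in serum. Of the 25 that were at least 2-fold higher in milk, 10 were higher and 14 lower in serum. miR-191 went from 5.77 to 14.5% in serum as it went from 43.8 to 9.66% in milk. Whether milk and serum differ in these changes was not tested, as each fluid had 1 library per day.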

How the data were processed

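The authors sequenced small RNA from skim milk and serum, counted known miRNAs with miRanalyzer and deposited each miRNA as a percent of its library's annotated miRNA reads, with 3 decimals. Read counts were not used here, so no interval of counting error is given. The number of unused columns was 0. The day labels of the paper's results were used. Milk at days 118 and 175 was 1 pooled library each, so values are given without a test. From the shares, ranks, differences, ratios, evenness and sums over 26 lists were computed with Python 3.11.15, numpy 2.4.6 and pandas 2.3.3, and plotted with matplotlib 3.10.9. Ratios were taken at a share of at least 0.005% in at least 1 library. The miRNAs named are the 10 most abundant of either library, the 10 largest and 10 smallest ratios at 0.01% or more and above 0 on both days, those at 0.005% or more on 1 day only, and members of the lists described. Outside these rules, miR-22 is named because it was assayed, and miR-455 because no other milk library lists it. The members and lists were chosen with earlier results of these data known. Alternatives were 4 other scalings, other minimum shares, folds and pseudocounts, rounding intervals, name roots summed and miR-191 left out. With no replicates to give a spread, a value counted as moved beyond 1.5-fold.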

Additional observations from a re-analysis of the deposited data

Results flagged for a closer look

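Over the miRNAs named by rank or ratio and the compared members of the lists, the deposited shares of 8 went opposite ways in milk and serum over the same days, by more than 2-fold in each fluid, and the difference between the fluids was not tested. On the log2 scale of day 175 over day 118, miR-19a was at 4.71 in milk and -2.70 in serum, miR-101 at 4.09 and -1.80, and miR-19b at 3.63 and -2.03. miR-182 was at 2.12 in milk and -1.32 in serum, miR-152 at 1.88 and -3, and let-7i at 1.66 and -1.67. miR-191 and miR-223 went the other way, with miR-191 at -2.18 in milk and 1.33 in serum and miR-223 at -3 and 1.26. miR-152 in serum and miR-223 in milk ended at 0.001%, the lowest printed share above 0. No group had enough libraries for a search for outlying samples.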

How the results depend on the processing

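No paired analysis was possible because each day had 1 library. The count of miRNAs at least 2-fold higher at day 175 was 30, and it moved to 19 under the centred log ratio, to 51 with a minimum share of 0.001%, to 17 with 0.1%, and to 19 at 4-fold. The count at least 2-fold lower was 7, and it moved to 14 under the centred log ratio and to 4 each with minimum shares of 0.01 and 0.1%, at 4-fold, and with a pseudocount of 0.01. With entries of at least 0.01% only, 52 miRNAs were listed at day 175, 9 at day 175 alone and 0 at day 118 alone. With at least 0.005%, 10 were listed at day 175 alone, and with at least 0.001%, 1 at day 118 alone. Without miR-191 the effective number at day 118 was 13.9 and the inverse Simpson index 10.1. Of 23 lists, 7 were at least 2-fold higher under the centred log ratio, and 4 were at least 2-fold lower with miR-191 left out, under the centred log ratio and after division by the median ratio. Of the 28 named ratios, 16 were past 2-fold and 0 of these turned direction in any scaling, while 8 of the other 12 did. Of the 23 list sums, 14 were past 2-fold with 0 turned, and 7 of the other 9 turned. Each scaling shifts all log2 ratios by the same value, 1.01 at most. A ratio past 2-fold could therefore hardly turn, and these counts of 0 were nearly fixed in advance. Rescaling to the listed sum moved no ratio or sum by over 1.5-fold. Under the other 3 scalings 27 or 28 named ratios and all 23 sums moved by over 1.5-fold, by the construction of these scalings. Rounding limits ratios of shares below 0.01%, and 1 library per day limits all of them.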
